A study of Mus musculus with 2 samples.

Results

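Dppa2, Dppa3, Dppa4 and Dppa5a are 4 mouse genes that take their name, developmental pluripotency associated, from their expression in pluripotent cells and early embryos. They were read on one-colour arrays of 46C cells, a mouse embryonic stem cell line with a GFP reporter at the Sox1 locus, after 5 days of neural differentiation. Per the labels, the cells were re-aggregated from single cells and grown in a low-adhesion dish in medium with knockout serum replacement. There were 2 groups of 1 array each, 46C cells of genotype WT and 46C cells of genotype KO-Linc1548, labelled as a knockout of a long intergenic non-coding RNA. How the knockout was made, and from how many clones, is not given in the sources used here, and no probe is named for Linc1548 (0 probes), so the label was not checked against its target. The members are all non-control probes that carry these 4 gene names, which gave 7 of 56605 probes on the array. With 1 array per group there was no replicate check, no test was run, and each value below compares these 2 arrays.

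DPPA2 and DPPA4 are partner proteins with a SAP domain that bind DNA together and, in embryonic stem cells, keep developmental promoters open and allow genes of the 2-cell embryo to be switched on. DPPA3, also called Stella or PGC7, is a maternal protein that protects DNA from changes in methylation, binds UHRF1, and marks primordial germ cells and naive embryonic stem cells. DPPA5A, also called ESG1, is an RNA-binding protein with a KH domain found in embryonic stem cells. All 4 genes are usually switched off as cells leave pluripotency and take on a neural fate.

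The probes are shown first, since each value is the signal of a short oligonucleotide of 60 bases, read in 1 spot per array. Capitals mark a longest run of bases that the probe shares, on either strand, with a probe of another gene on this array. The first 30 bases of each probe are printed, 5′ to 3′, and they hold the whole shared run; where a probe lies in its transcript was not read here.
Dppa2 probe 1: tcctgaatgtgttCAGAGCAACAAGAAgat
Dppa2 probe 2: accacttagcCAGTACTGATGTAtgtttga
Dppa3 probe 1: taACCTTTAAATTGTagataggatgcacaa
Dppa3 probe 2: cccaggGCTGAGGAATAAAgtaaatagaat
Dppa4 probe 1: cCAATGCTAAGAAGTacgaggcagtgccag
Dppa4 probe 2: ATAAGAACAAGATcttgactaagagcctcg
Dppa5a probe: TTTGTTACATCCTAGcaagatattcctgga

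The shared runs were 13 to 15 bases long, and they were sought among the array's probes only, not in transcripts. The RefSeq table lists pseudogenes named Dppa5b and Dppa5c on chromosome 9 and Dppa3-ps on chromosome X, and none of them has a probe under its name (0 probes); whether their RNA would reach the Dppa5a and Dppa3 probes was not tested.

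All positions are on mouse build mm9, as the files give them; exon and UTR annotation of that build was not used here. Dppa2 probe 1 (accession NM_028615) lies at chr16:48317579-48318787, a span of 1209 bases for 60 bases of probe, so its sequence is split in the genome. Dppa2 probe 2 (NM_028615) lies at chr16:48319381-48319440. Dppa4 probe 1 (NM_028610) lies at chr16:48291368-48291427, and Dppa4 probe 2 (NM_028610) spans 652 bases at chr16:48293216-48293867 and is likewise split. The Dppa4 and Dppa2 probes are 23.7 kb apart and on the same strand. The Dppa3 probes (NM_139218) lie at chr6:122580134-122580193 and chr6:122580207-122580266, and the Dppa5a probe (NM_025274) lies at chr9:78214902-78214961 on the minus strand.

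Every member was higher on the knockout array, by 5.03-fold to 16-fold per gene. Signals are Agilent processed intensities scaled so that the 75th percentile of non-control probes was the same on both arrays. A difference is the log2 signal of the knockout array minus that of the WT array. A probe counted as measured where its spot was called well above background on both arrays and was not saturated. Of the 7 member probes, 6 were measured and 1 was well above background on the knockout array only. All 6 measured probes were at least 2-fold higher, against 10.5% of 31536 measured probes, and all 6 were at least 4-fold higher, against 3.32%. Of the 6, 2 were at least 8-fold higher, against 1.11% of all measured probes. None (0 of 6) was lower by 2-fold or more, against 8.44%.

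**Figure D1:**
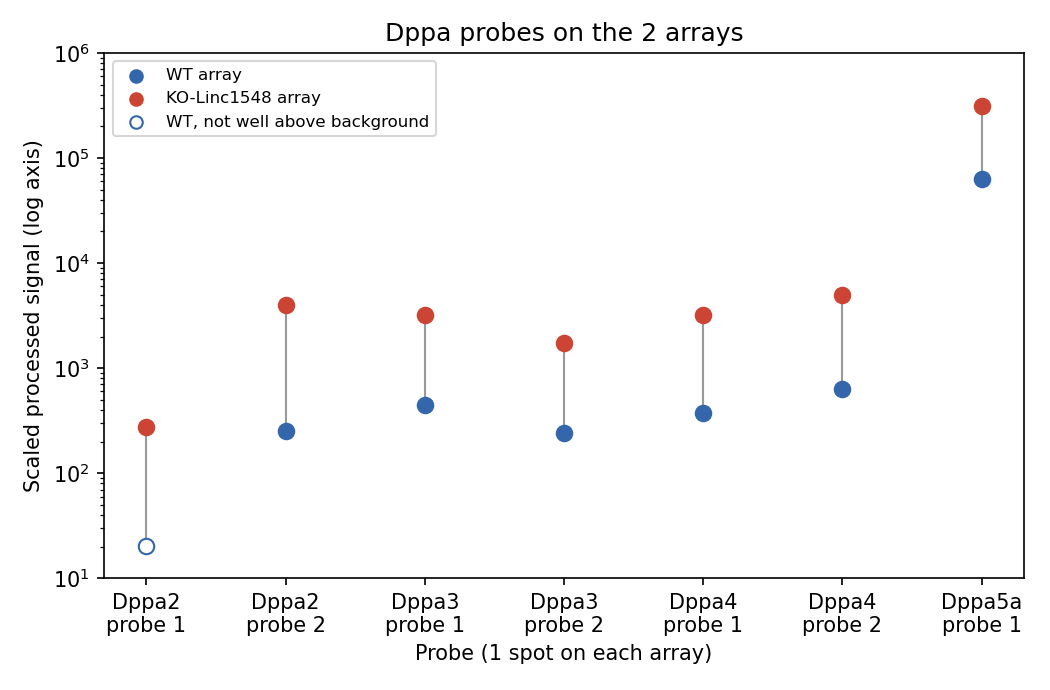
Scaled processed signal (log axis) of the 7 Dppa probes on the WT array (blue) and the KO-Linc1548 array (red), 1 spot per array, with a line joining the 2 values of a probe. The red point lies above the blue one for each probe, and the open blue point, Dppa2 probe 1 at 20.1, is not well above background.

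Dppa2, the DNA-binding partner of DPPA4, showed the widest gap. Dppa2 probe 2 read 250.8 on the WT array and 4018 on the knockout array, a log2 difference of 4.0 (16-fold). Before scaling, the deposited signals were 288.6 and 3491.7, each with an error of about 10% by the software's own error model (10.2% and 10.0%). Dppa2 probe 1 read 20.1 on the WT array, where the software did not call it well above background, and 273.8 on the knockout array. Its difference is therefore given as a nominal bound, 12.9-fold higher or more in the knockout. It was computed against the higher of its own WT signal and the lowest WT signal well above background (21.3). That bound leaves out spot error. By the error model, the lower end of its log2 difference of 3.77 was 3.03, which is under the bound. The folds given below as at least a value were computed likewise and leave out spot error too. In the unscaled spot means, this probe stood at 58.8 over a local background of 23 on the WT array and at 277.1 over 25 on the knockout array. Both Dppa2 probes thus had their low value on the WT array and a clear signal on the knockout array.

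Dppa4, the partner of DPPA2, was 8.25-fold higher as the median over its 2 probes (log2 difference 3.04). Dppa4 probe 1 read 371.3 on the WT array and 3228 on the knockout array, 8.69-fold higher. Dppa4 probe 2, whose sequence is split in the genome, read 633.4 and 4962, 7.83-fold higher. The log2 differences of both probes, 3.12 and 2.97, lay 0.15 apart. The 95% interval of spot noise for a gap between 2 single-spot probes is ±0.26, so they did not differ beyond it.

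Dppa3, the maternal factor and germ cell marker, was 7.16-fold higher (log2 difference 2.84). Its probe 1 read 449.5 on the WT array and 3212 on the knockout array, 7.15-fold higher. Its probe 2 read 243.4 and 1749, 7.18-fold higher. The log2 differences lay within 0.01 of each other. Both probes share an accession and a short stretch of chromosome 6, so they are not independent readings.

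Dppa5a, the KH-domain RNA-binding protein, had the smallest difference. Its probe read 62853 on the WT array and 316260 on the knockout array, 5.03-fold higher (log2 difference 2.33). It was bright on both arrays: the unscaled knockout signal of 274856 lay near the brightest spot of that array (305107) and under the scanner's saturation value of 778541, and the spot was not called saturated. Loss of linearity below saturation was not tested. Dppa5a was the member that moved most with intensity-dependent scaling, with a log2 difference of 1.97 after quantile normalization and 1.93 after loess.

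These data give an error from repeat spots and one from the software's error model. Over 298 probes printed in several spots, the pooled SD of the log2 signal was 0.065 on the WT array and 0.07 on the knockout array, which puts a 95% interval of ±0.19 around the log2 difference of a single-spot probe. For 16 such probes under a scaled signal of 1000 on the WT array and 14 on the knockout array the SD was 0.08 and 0.103, and the interval widens to ±0.26. The error model of about 10% a spot gives a wider interval still, ±0.40 for each measured member probe. Its lower end for the measured probes ran from 1.93 (Dppa5a) to 3.60 (Dppa2), above the 2-fold limit. Each of these errors is within an array and leaves out the spread between cultures, which 1 array per group cannot show.

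The genes ranked Dppa2, Dppa4, Dppa3 and Dppa5a from the largest to the smallest difference, and this order held in all 10 other processing settings run. The difference of Dppa2 exceeded that of Dppa4 by 0.96 on the log2 scale (0.73 to 1.19 by spot noise, 0.46 to 1.45 by the error model) and that of Dppa5a by 1.67 (1.41 to 1.94, and 1.1 to 2.24). Neighbours in the order were closest for Dppa4 and Dppa3, whose order is not settled. Dppa3 minus Dppa4 was −0.20, with an interval of −0.39 to −0.02 from all repeat spots. It was −0.46 to 0.05 from the dim ones and −0.61 to 0.20 by the error model. Each probe of both genes was under a signal of 1000 on the WT array but over it on the knockout array. On that array the SD was 0.103 for dim probes and 0.069 for brighter ones. The dim interval is thus wider than these signals call for. Dppa3 lay 0.51 above Dppa5a (0.28 to 0.74, and 0.02 to 1.00 by the error model). These are comparisons of changes, not of levels, since signals of different probes cannot be set against each other.

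**Figure D2:**
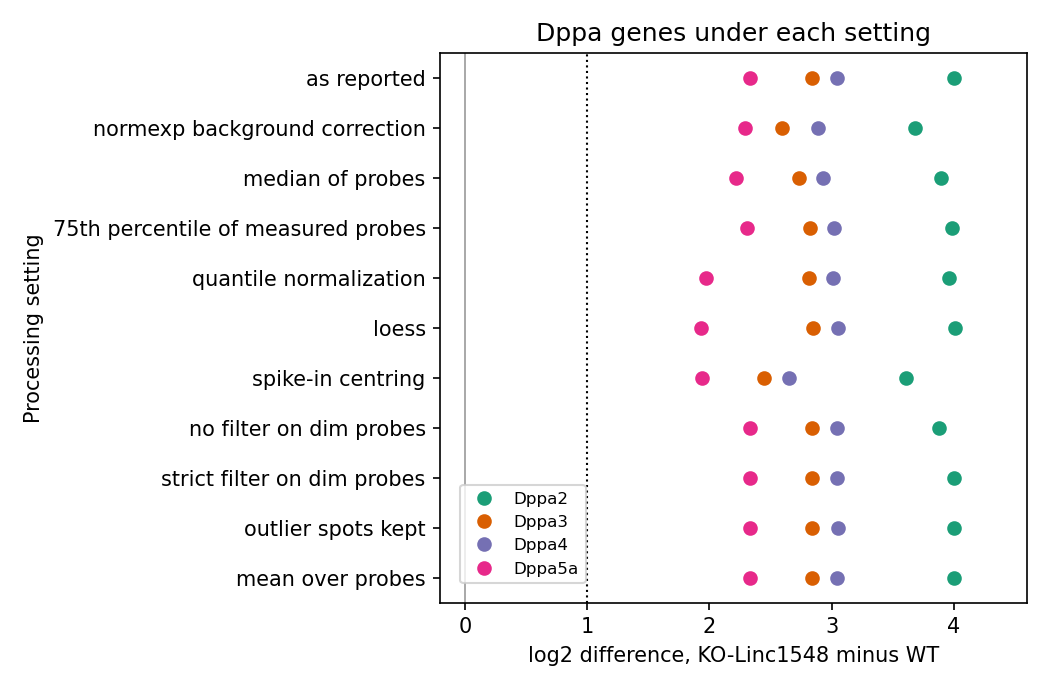
The log2 difference (KO-Linc1548 minus WT, horizontal axis) of each Dppa gene as reported and under 10 other processing settings (vertical axis); the dotted line marks 2-fold. All points lie right of that line, from 1.93 for Dppa5a with loess to 4.01 for Dppa2 with loess, in the same order of genes throughout.

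Among all 18671 genes measured on both arrays, all 4 members were at least 2-fold higher, against 11.5% of genes, and at least 4-fold higher, against 4.03%; 0 were lower by 2-fold or more, against 8.81%. The 4-fold call of Dppa5a ended with quantile (1.97), loess (1.93) and spike-in scaling (1.94). Dppa2 and Dppa4 were at least 8-fold higher, against 1.44%, and the call of Dppa4 ended with normexp (2.89), median (2.93) and spike-in scaling (2.65). The median log2 difference of the 4 members was 2.94, beside 0.1 for all genes. Dppa2 ranked 50th by its difference, with 0.262% of genes above it. Dppa4 ranked 253rd (1.35% above), Dppa3 322nd (1.72%) and Dppa5a 538th (2.88%). A scaling on spike-in controls moved all genes by −0.39 and left 1391 genes past 2-fold upward and 2981 downward, where the 75th percentile gave 2149 and 1644. The members were then at 3.61 (Dppa2), 2.65 (Dppa4), 2.45 (Dppa3) and 1.94 (Dppa5a). Of 1032 measured probes with a WT signal within 2-fold of that of Dppa5a, 10 (0.969%) were at least 2-fold higher and 0 were as high as Dppa5a. The unscaled knockout signal of Dppa5a (274856) lay near the brightest spot of that array (305107), with saturation at 778541. Whether the differences of the brightest probes were held down was not tested. The 0 is therefore not set against the shares of the dimmer members. For the 5 other measured probes, between 0.222% and 1.36% of the probes of similar WT signal were as high.

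**Figure D3:**
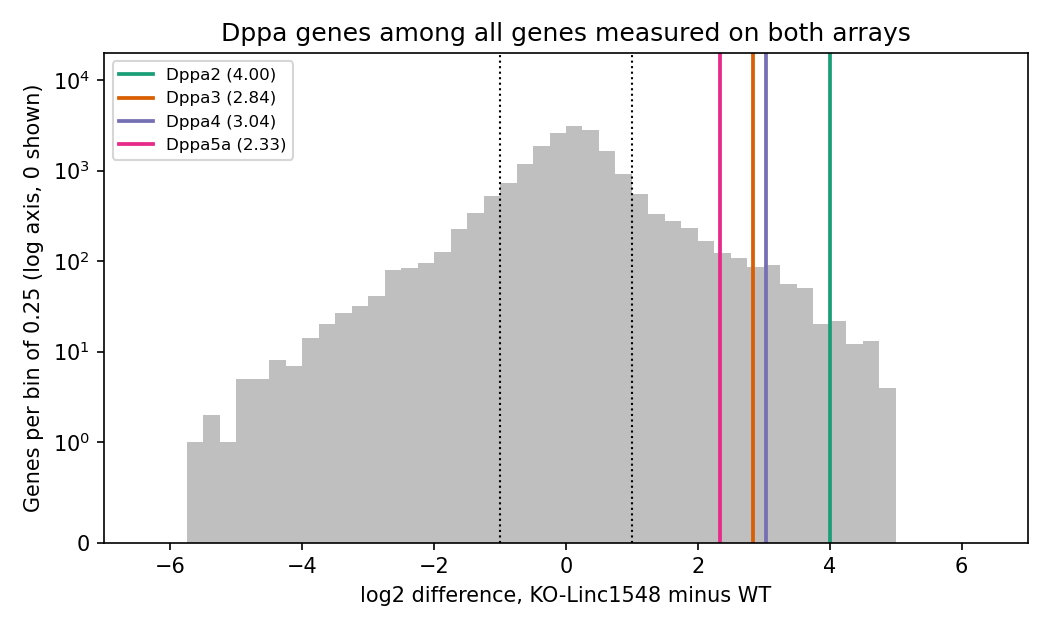
Number of genes per bin of 0.25 (vertical log axis) against the log2 difference, KO-Linc1548 minus WT, over 18671 genes measured on both arrays; coloured lines mark the 4 Dppa genes and dotted lines 2-fold in each direction. The members lie in the upper tail, at 2.33 (Dppa5a), 2.84 (Dppa3), 3.04 (Dppa4) and 4.0 (Dppa2).

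Dppa1, a further gene of this name that belongs to none of the families above, gave no signal to compare. Its probe lies at chr11:46422255-46422314 and was not well above background on either array, with a scaled signal of 4.32 on the WT array and 6.35 on the knockout array.

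Genes beside the members on the chromosome were read next, as all genes with a probe within 200 kb. Dppa3 lies on chromosome 6 in a cluster with the pluripotency genes Gdf3 and Nanog. Of 7 measured named genes there, 4 passed 2-fold upward and 0 downward, against 11.5% and 8.81% of all measured genes. Gdf3, a growth factor of the TGF-beta family in pluripotent cells, lies 23.7 kb away and was 8.59-fold higher, with its probes at log2 2.94 and 3.26. Apobec1, an RNA-editing deaminase 39.0 kb away, was 3.51-fold higher. Slc2a3, a glucose transporter 97.8 kb away on the other side, was 3.42-fold higher, with probes at 1.32 and 2.23. Mfap5, a microfibril protein, read 34.3 and 288; its WT signal was close to background, and its difference of 3.07 shrank to 1.77 with normexp background correction. Nanog, the pluripotency homeobox gene 83.2 kb from Dppa3, had probes in opposite directions, at 2.95 (405 and 3138) and −1.63 (218 and 70.3); a filter at a signal of 100 kept the first probe only. Rimklb (log2 0.45) and a transcript named ENSMUST00000121713 (0.25) were within 2-fold. A lincRNA locus in this window was at −0.13.

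Around Dppa5a on chromosome 9 the picture was mixed. Of 10 measured named genes, 3 passed 2-fold upward and 1 downward, against 11.5% and 8.81% of all measured genes. Ooep, a KH-domain gene of the oocyte whose probe lies 9.8 kb from that of Dppa5a, was well above background on the knockout array only, at least 3.44-fold higher. Ddx43, an RNA helicase of germ cells 51.2 kb away, was 10.4-fold higher on 1 measured probe. A probe named NAP102538-1, 121.2 kb away, read 5156 and 47261, or 9.17-fold higher. Gsta4, a glutathione transferase, was 2.09-fold higher and fell under 2-fold with median, quantile, loess and spike-in scaling. Cilk1, a kinase gene at the far edge, was lower, with a log2 difference of −1.23 that shrank to −0.64 without the filter on dim probes. Mto1 (0.41), Eef1a1 (0.34), Slc17a5 (0.26), Cgas (0.03), Rn7sk (0.57) and C920006O11Rik (0.11) were within 2-fold. Both measured lincRNA loci were too, at 0.58 and 0.52, and a further lincRNA locus 96.9 kb away was well above background on the WT array only (24.6 and 6.28).

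Around Dppa2 and Dppa4 on chromosome 16 few genes could be read. Apart from the pair itself, 1 probe was measured there, named NAP113774-1, at 24178 and 41137 (log2 0.77). Gm5485, AK079840 and 6430553K19Rik were not well above background on either array.

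**Figure D4:**
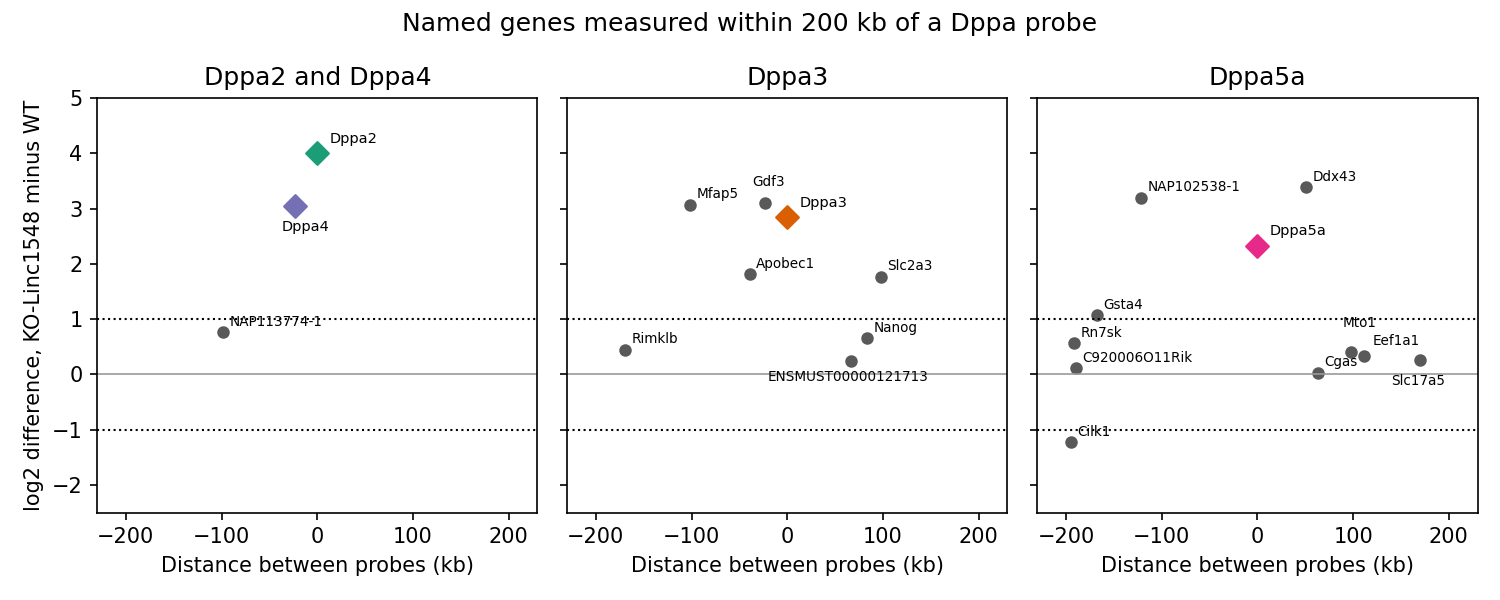
The log2 difference (KO-Linc1548 minus WT, vertical axis) of each named gene measured within 200 kb of a Dppa probe, against the distance between probes in kb (horizontal axis); diamonds are Dppa genes, and Dppa4 stands at its distance from Dppa2. Gdf3 (3.1) stands beside Dppa3, while Eef1a1 (0.34), Mto1 (0.41) and Cgas (0.03) near Dppa5a lie within the dotted 2-fold lines.

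Genes that published work ties to DPPA2 and DPPA4, meiosis and piRNA genes and genes of the 2-cell embryo, were mostly higher on the knockout array. Of 10 listed, 6 were measured on both arrays, and all 6 passed 2-fold upward, against 11.5% of all measured genes. Their median log2 difference was 4.05. The Zscan4 genes among the 6 lay above the others, which were Mael (3.47), Syce1 (3.73) and Stk31 (3.31). Mael, of the piRNA pathway, read 218 and 2416 (11.1-fold). Syce1, of the synaptonemal complex, read 333 and 4434 (13.3-fold). Zscan4a, of the 2-cell programme, was the highest at 24.6-fold. Stk31, a germ cell kinase, was the lowest at 9.94-fold, with a WT signal of 27.6 close to background and a difference of 1.91 under normexp. Dux, which drives the 2-cell programme, was well above background on the knockout array only (at least 1.86-fold), and Nkx2-5, a heart development factor, on the WT array only (at least 1.08-fold lower in the knockout). Trim40 was not well above background on either array. The Zscan4 genes are near-identical copies, so which of them a probe read is uncertain. The same RNA may thus enter the count of 6 and its median repeatedly.

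The DNA methylation machinery, in which DPPA3 acts through UHRF1, was divided. Of 9 genes, 4 passed 2-fold upward, 0 downward and 5 were within it (median 0.85). Of all measured genes, 11.5% passed it upward and 8.81% downward (median 0.1). Uhrf1, which brings DNMT1 to newly copied DNA, was within 2-fold at 0.26, with both probes close (0.17 and 0.34). Dnmt1, the maintenance methyltransferase, read 2180 and 1907 (log2 −0.19). Dnmt3l, a cofactor of new methylation, was the highest at 9.92-fold on 1 of 2 probes, and Dnmt3b followed at 4.18-fold, while Dnmt3a was at 0.85. Tet1 (4.06-fold) and Tet2 (2.09-fold) were the others past 2-fold. Tet2 fell under it with normexp (0.99), median (0.95) and spike-in scaling (0.67). Tet3, the oxidase from which DPPA3 shields the maternal genome, had the lowest median at −0.63, with its probes at −1.49 and 0.22, and no settled direction. It was at −1.02 with spike-in centring, −0.14 with normexp and 0.22 with the stricter filter, which kept 1 probe.

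The KH-domain genes related to Dppa5a, listed with genes of the oocyte's subcortical maternal complex, were dim. Of the 8 genes of both kinds, 3 were measured on both arrays. These passed 2-fold upward (median 2.02), against 11.5% of all measured genes. Khdc3 was the only KH-domain gene among the 3, so the median says little about relatives of Dppa5a. Khdc3, a KH-domain gene of the oocyte and stem cell, read 75.9 and 932 (12.3-fold, log2 3.62; 2.88 with normexp). Nlrp5, of the same complex, was the lowest at 2.46-fold, and under 2-fold with normexp (0.95) and spike-in centring (0.91). Khdc1a, Khdc1b and Khdc1c were not well above background on either array.

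Of 12 pluripotency factors, 9 passed 2-fold upward and 0 downward (median 2.62), against 11.5% and 8.81% of all measured genes. Tfcp2l1 was the highest at 12.4-fold and Sox2 the lowest, at 14336 and 15908 (log2 0.15). Zfp42 was 11.3-fold and Esrrb 9.95-fold higher. Pou5f1, which encodes OCT4, was 3.97-fold higher (log2 1.99), a smaller difference than that of Dppa2, Dppa3 and Dppa4. It was also under Dppa5a (2.33), but closely so in some settings. Pou5f1 and Dppa5a were at 1.92 and 1.97 with quantile normalization and at 1.91 and 1.93 with loess. No error interval was computed for that gap, so their order is not settled. Nanog had a median of 0.66 from the opposed probes above.

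**Figure D5:**
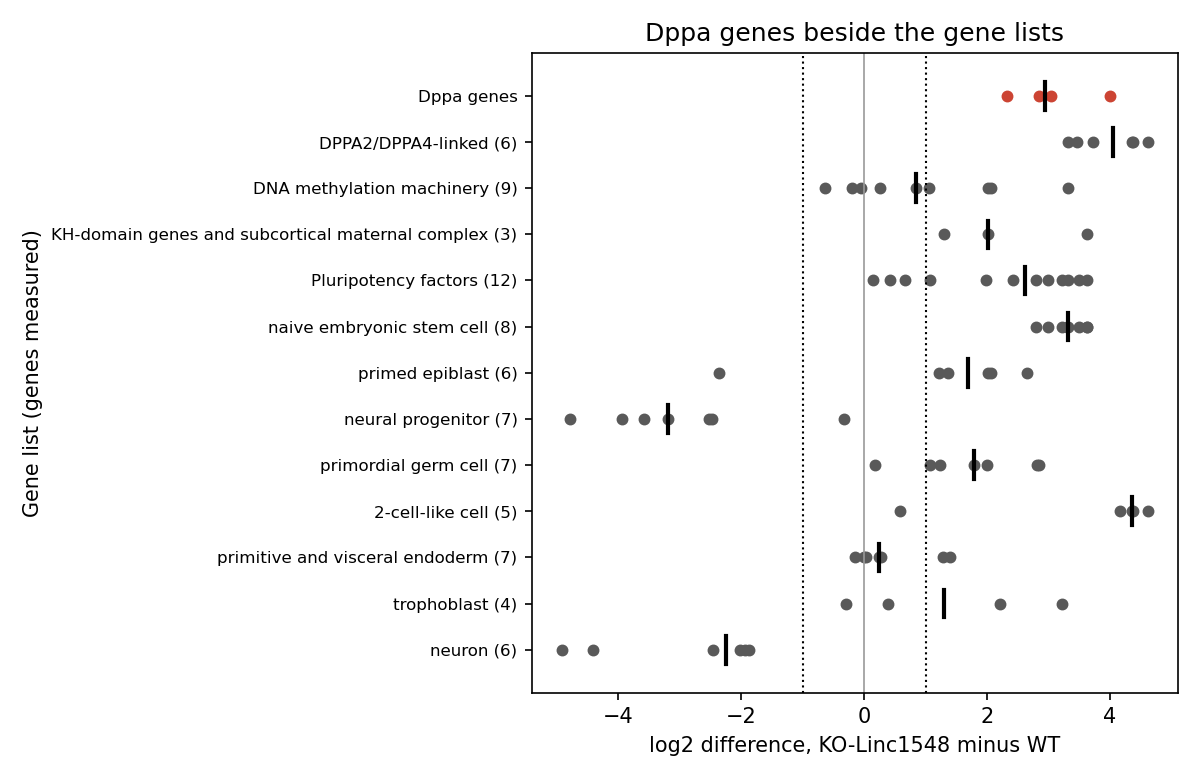
Each dot is a gene measured on both arrays, placed by its log2 difference, KO-Linc1548 minus WT (horizontal axis), in rows by gene list with the number measured; black bars are medians and dotted lines 2-fold. The 4 Dppa genes (red) span 2.33 to 4.0, the naive stem cell markers lie around 3.31, and the neural progenitor markers around −3.19.

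Markers of cell states differed between the arrays in both directions. All 8 naive embryonic stem cell markers were at least 2-fold higher (median 3.31), with a summed scaled signal of 9927 on the WT array and 104717 on the knockout array. Of 7 measured primordial germ cell markers, 6 were at least 2-fold higher (median 1.78, summed signal 5037 and 13502), and Kit was not (0.17). Nanos3 fell under 2-fold with normexp (0.78), spike-in centring (0.85) and the stricter filter (0.30). Prdm14 did so with normexp (0.82), median (0.96) and spike-in scaling (0.68). Of 5 measured 2-cell-like markers, 4 were at least 2-fold higher (median 4.36, summed signal 5379 and 29940). Zfp352, on 1 of 3 probes, was not (0.58). Zscan4a, Zscan4f and Tcstv3 made up 145, 360 and 434 of the WT sum, so other genes set most of it. Of 6 primed epiblast markers, 5 were at least 2-fold higher, with Sox3 lower (median 1.69, summed signal 56966 and 146942). Pou3f1 (0.83) and Zic2 (0.98) fell under 2-fold with spike-in centring. Of 7 measured neural progenitor markers, 6 were at least 2-fold lower (median −3.19; 82820 and 7320), and all 6 neuron markers were (median −2.24; 25958 and 5614). Of 7 primitive and visceral endoderm markers, 2 were at least 2-fold higher (median 0.24, summed signal 3434 and 3961). Ttr, of these 2, fell under 2-fold with normexp (0.97), spike-in centring (0.90) and no dim filter (0.83). Of 4 measured trophoblast markers, 2 were at least 2-fold higher (median 1.3, and 0.39 with a stricter filter). Elf5 and Hand1 were not well above background on either array. The trophoblast sums, 32286 and 27737, were mostly Krt18 (31885 and 26134), so the lower sum on the knockout array is that of Krt18. Each summed signal is set mainly by the brightest probes of its list. Some lists share genes, so their counts are not separate readings. The 2-cell-like markers Zscan4a, Zscan4c and Zscan4f also entered the count of genes tied to DPPA2 and DPPA4. The naive markers Zfp42, Esrrb, Klf4, Klf2, Tfcp2l1 and Tbx3 also entered that of the pluripotency factors, as did the germ cell marker Prdm14. Dnmt3b is in the primed epiblast list and in the DNA methylation machinery. The part of these cell states in the Dppa signals was not tested, and more cells of a kind cannot be told apart from more RNA per cell in RNA from whole cultures.

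The genes whose difference lay nearest to that of a member, among RefSeq-named genes with a WT signal within 2-fold of the member's, rest on a single pair of arrays. For Dppa2 they were AF067061 (3.99) and Morc1 (3.97), a germ cell chromatin gene whose probe lies on chromosome 16 at 305 kb from that of Dppa2. For Dppa3 they were Ddx4 (2.84), a germ cell RNA helicase, and Eprn (2.85). For Dppa4 they were Zfp296 (3.06) and Epha1 (3.07). For Dppa5a they were Sp110 (2.23, the median of probes at 0.37 and 4.10) and Gpx4 (1.70), and the latter lay 0.63 from Dppa5a. The WT signal of Sp110 (54500) is also a median over its 2 probes. Neither probe of Sp110 had a difference near that of Dppa5a, so its likeness comes from the averaging.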

How the data were processed

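Cy3-labelled cRNA from total RNA was read in 1 colour, per the labels' protocols. The authors used Agilent Feature Extraction 10.7.1.1, per the submitters' processing notes, and deposited intensity values that were, per the file headers, background-subtracted and detrended within each array, with surrogates for very low signals and no normalization between arrays. Outlier spots were left out (173 WT, 155 knockout; none of a member). After averaging a probe's spots on the log2 scale, the 75th percentile of each array (864 WT, 652 knockout) was subtracted; signals are printed at their common level (751). A probe of several spots was measured where a share of at least 0.5 was well above background on both arrays; a gene's value is the median of its measured probes' log2 differences. Names came from a RefSeq table (GRCm38.p6, names only): 32994 probes by accession, 10224 by symbol and 520 by synonym. Alternatives used limma 3.58.1 (normexp offset 50, quantile, loess span 0.3), 8 spike-in probes, the median or the 75th percentile of measured probes, no or a stricter dim filter, outlier spots kept, and probe means. The steps were run on simulated arrays, made from the WT signals with spot noise added and chosen genes raised by a set amount. That checks the code and does not test the calls in these data. The members and all 12 lists were chosen with earlier results of these data known. Named are the members, neighbours within 200 kb and the nearest genes by difference. Of the 4 lists that are not cell type markers, the highest, the lowest and up to 4 of the first 6 are named. Tet1 and Tet2 were added after their values were seen. Single markers are named as exceptions to their list's count, as not above background or as shared between lists. Others are named as part of a summed signal or where a call moved with processing. All these markers were chosen after their values were seen. Members' promoter sequences were not used here, and 1 neighbour of Dppa3 is not reported here.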

Additional observations from a re-analysis of the deposited data

How the results depend on the processing

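Each member kept its direction and stayed past 2-fold in all 10 other settings: 3.61 to 4.01 for Dppa2, 2.65 to 3.05 for Dppa4, 2.45 to 2.85 for Dppa3 and 1.93 to 2.33 for Dppa5a. The 4-fold call of Dppa5a and the 8-fold call of Dppa4 each ended in 3 settings. Member probes at least 2-fold higher were 6 or 7, the 7th being the dim Dppa2 probe (3.77 without the filter). Counts over the whole array moved more. Probes at least 2-fold higher were 2010 with spike-in centring, 6797 without the filter and 1881 with the stricter filter (signal of at least 100); genes were 1391, 4037 and 1333. Probes at least 2-fold lower were 1700 with normexp, 5015 with spike-in centring and 5044 without the filter; genes were 1048, 2981 and 2587. The median of the genes tied to DPPA2 and DPPA4 was 3.44 without the filter, and that of trophoblast markers fell under 2-fold with spike-in centring (0.91), without the filter (0.70) and with the stricter filter (0.39). The filters change which probes enter; the other causes were not tested. Median centring, quantile, loess and spike-in scaling shifted the median of all genes by −0.11, −0.10, −0.09 and −0.39. No paired analysis was possible because each group has 1 array. Signals near background, such as Dppa2 probe 1 on the WT array, give nominal bounds only, which leave out spot error. The number of arrays limits the precision.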
